A study of Homo sapiens with 12 samples.

Results

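SVA elements are the youngest family of retrotransposons in the human genome, and the members described here are all 3569 SVA elements with at least 1 count in any library of an anti-V5 PAR-CLIP experiment. They were taken by their annotated class (Retroposon, subfamilies SVA_A to SVA_F) from 2314408 elements of 6 repeat classes (LTR, LINE, SINE, DNA, RC and Retroposon) that had counts. Reads on the strand of the element (sense) and on the other strand (antisense) were kept apart: 3132 SVA elements had sense counts and 3080 had antisense counts. The libraries came from A375, an established human melanoma line, in which a V5-tagged protein was expressed by transient transfection, RNA was labelled with 4-thiouridine from 24 h later and crosslinked by UV light, and the protein was pulled down through its tag. The protein was Clover, a fluorescent protein used as the control, full-length ZC3H18 (Z18fl), a truncated ZC3H18 (Z18trunc), or the truncated protein with its aromatic zinc-finger residues mutated (Z18truncZnFmut), with 3 libraries each. ZC3H18 is a CCCH zinc-finger protein that links the nuclear cap-binding complex to RNA decay. No source used here describes a loss of the cells' own ZC3H18, and no step selected the protein by size.

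An SVA is a composite of other repeats. From 5′ to 3′ it holds CCCTCT hexamers, an Alu-like part in antisense, a variable number of GC-rich tandem repeats, a SINE-R part derived from an endogenous retrovirus of the HERV-K group, and a poly(A) tail. It codes for no protein and is copied by the enzymes of LINE-1 (L1), as Alu elements are. SVA_A is the oldest subfamily and SVA_E and SVA_F are found only in humans, many SVA copies are transcribed as part of the gene they lie in, and copies of a subfamily are so alike that many reads fit more than 1 of them.

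The libraries held 16683132 to 25686948 aligned fragments, fewest in Clover, and 6.28% to 9.59% of them lay on repeat elements of the 6 classes in 11 libraries. Z18truncZnFmut replicate 3 stood apart at 16.3%, with 1414822 elements listed against 283091 to 697167 elsewhere. Single libraries listed between 1661 and 2706 SVA elements. The tables hold repeats only, so the markers of melanoma cells and the level of the transfected gene were not measured, no library of unselected RNA was analysed here, and more pull-down of an RNA cannot be told apart from more of that RNA in the cells.

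The first bases of 2 elements are given, of an intronic element that rose with every ZC3H18 construct and of the entry with the highest fold change on the antisense strand, which shows how far a member can depart from the SVA structure. Both are read from hg38 in the direction of the element, with CCCTCT in capitals: the first 160 bases of the SVA_A in RNF103-CHMP3 (minus strand, chr2:86546241-86546400) and of the SVA_F entry in SPATC1L (plus strand, chr21:46170126-46170285).
RNF103-CHMP3 SVA_A 5′: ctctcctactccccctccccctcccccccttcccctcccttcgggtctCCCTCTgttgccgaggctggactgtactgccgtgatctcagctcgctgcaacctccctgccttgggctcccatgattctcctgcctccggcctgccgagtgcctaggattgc
SPATC1L SVA_F 5′: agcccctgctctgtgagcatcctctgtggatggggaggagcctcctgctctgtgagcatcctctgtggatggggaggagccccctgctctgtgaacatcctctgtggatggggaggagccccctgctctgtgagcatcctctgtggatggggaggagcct

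The RNF103-CHMP3 element held 1 CCCTCT hexamer in its first 160 bases. Over all members long enough to be searched, 2355 of 3003 (78.4%) held CCCTCT in the first 160 bases and 14 (0.466%) held its reverse complement, while AATAAA, the usual polyadenylation signal, lay in the last 100 bases of 1844 of 3306 (55.8%) and its reverse complement in 22 (0.665%). The share with CCCTCT ran from 57.7% of SVA_A to 86.1% of SVA_C. The entry in SPATC1L is a tandem array with no such motif at either end and a divergence from its consensus of 314 substitutions in 1000 bases, and the entry in C7orf50 is 99 bases long with a divergence of 239 on this scale, where the median member had 64. The members' median length was 1277 bases, and 638 (17.9%) had another SVA entry within 50 bases on the same strand, so that neighbouring entries can be pieces of 1 insertion.

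SVA counts were concentrated in few elements. On the sense strand 1 element held 4.91% of the mean CPM (counts scaled to 1000000 aligned fragments), 10 elements held 24.0% and 100 held 65.1%. On the antisense strand the leading element, the SVA_E in HUWE1, held 12.1% and 100 elements held 54.4%. By subfamily, SVA_D had most sense CPM in the Clover libraries at 369.7 ± 13.2 (SD, n = 3), followed by SVA_F at 171 ± 5.43, SVA_A at 101 ± 1.70, SVA_B at 58.3 ± 0.645, SVA_C at 51.0 ± 1.30 and SVA_E at 19.2 ± 0.231. No neighbours in that order overlapped. The 2120 members of at least 1000 bases held 88.0% of the sense counts in Clover. By place in the GENCODE annotation, the 646 members in introns on the strand of the gene held 41.5% of the Clover sense counts, the 1255 between genes 24.5%, the 1163 that lie opposite to a gene 17.2% and the 68 with at least 50% of their length in exons 16.8%. Antisense reads came mostly from introns of genes that run opposite to the element, with 79.8% of the Clover antisense counts at 1436 members. The share of sense SVA counts from reads that map to 1 place was 59.0% ± 2.18 in Clover, and by subfamily in the 4 groups it ran from 41.5% to 47.6% in SVA_E and from 68.9% to 73.6% in SVA_A, so values of single SVA_E and SVA_F copies rest more on the authors' assignment of shared reads.

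Summed over the class, sense SVA counts per aligned fragment were slightly higher on average with each ZC3H18 construct, with overlap between groups for 2 of the 3. Sense SVA counts in the order of replicates 1 to 3 were 12520, 13373 and 13753 for Clover, 20120, 17656 and 21527 for Z18fl, 19834, 19536 and 19532 for Z18trunc, and 24931, 15540 and 20574 for Z18truncZnFmut. In CPM these were 750.4, 781.8 and 778.2 with Clover, 868.9, 769.5 and 838.1 with Z18fl, 834.2, 807.3 and 825.2 with Z18trunc, and 1031, 730.1 and 849.5 with Z18truncZnFmut. The Z18trunc libraries lay above all Clover libraries, while those of Z18fl and Z18truncZnFmut overlapped them. The difference from Clover was 55.4 CPM with Z18fl (two-sided exact permutation test, p = 0.3), 52.1 with Z18trunc (exact permutation test, p = 0.1) and 100.2 with Z18truncZnFmut (exact permutation test, p = 0.4). Leaving out 1 library moved the last value to between 19.7 (without Z18truncZnFmut replicate 1) and 170.3 (without Z18truncZnFmut replicate 2). With 3 libraries against 3 the smallest p this test can give is 0.1, and after adjustment over the 40 tests of 8 measures no adjusted p of an exact permutation test was below 0.222. Nothing in the labels says that libraries of a group came from separate transfections, so p-values measure the spread between these libraries. Antisense counts were 400.1 ± 16.0 CPM in Clover, 407 ± 22.4 for Z18fl, 446 ± 22.8 for Z18trunc and 474 ± 7.24 for Z18truncZnFmut (SD, n = 3 each). The last of these groups lay above Clover without overlap, as did Z18trunc (exact permutation test, p = 0.1 each), and Z18fl overlapped Clover (exact permutation test, p = 0.8).

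**Figure D1:**
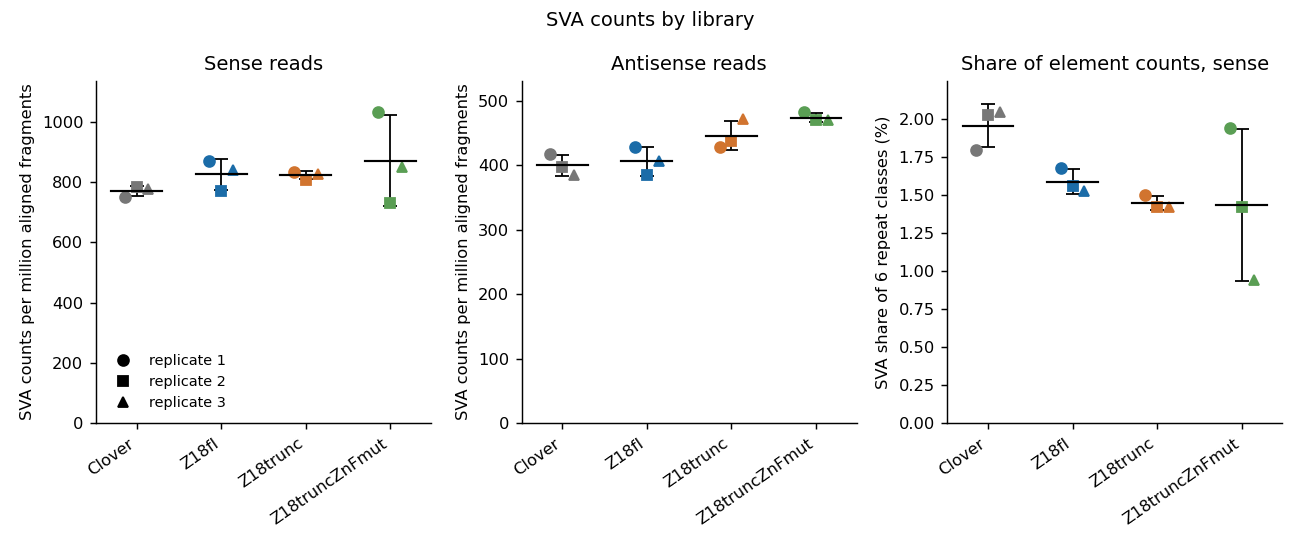
SVA counts by library. The left and middle panels plot sense and antisense SVA counts in CPM and the right panel the share of SVA in the sense counts of 6 repeat classes in percent, with 1 symbol per replicate, a line at the mean of 3 libraries and bars of 1 SD; the share is lower in Z18fl and Z18trunc than in every Clover library, while sense counts per aligned fragment overlap for Z18fl.

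Relative to the other repeats, SVA took a smaller part of the reads in every Z18fl and Z18trunc library than in any Clover library. SVA made up 1.79%, 2.02% and 2.04% of the sense counts of the 6 classes in the Clover libraries, 1.68%, 1.56% and 1.52% for Z18fl, 1.501%, 1.42% and 1.42% for Z18trunc, and 1.94%, 1.42% and 0.942% for Z18truncZnFmut. No Z18fl or Z18trunc library reached a Clover library (exact permutation test, p = 0.1 each), and Z18truncZnFmut overlapped Clover (exact permutation test, p = 0.2). Without Z18truncZnFmut replicate 3, the library with most repeat reads, its difference from Clover was -0.275 percentage points in place of -0.520. The log2 ratio of SVA to L1 counts was -3.29 ± 0.155 in Clover and the differences from it were -0.86 with Z18fl, -1.14 with Z18trunc and -1.07 with Z18truncZnFmut, without overlap in any of these (exact permutation test, p = 0.1 each). Without Z18truncZnFmut replicate 3 the last difference was -0.71. Against Alu, which like SVA depends on L1 for its copying, the differences were -0.08 (exact permutation test, p = 0.4), -0.22 (exact permutation test, p = 0.1) and -0.26 (exact permutation test, p = 0.3).

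A larger part of the SVA reads came from introns in every Z18fl library than in any other library. The same share over all repeats is not given here. Tested intronic elements of all classes rose more with Z18fl than intronic SVA elements did, as described below. The share of sense SVA counts at elements in introns on the strand of the gene was 41.7%, 41.7% and 41.1% with Clover, 47.3%, 47.9% and 48.0% with Z18fl, 44.7%, 44.9% and 44.4% with Z18trunc, and 44.3%, 43.1% and 41.3% with Z18truncZnFmut. All Z18fl libraries lay above all Z18trunc libraries, which lay above all Clover and all Z18truncZnFmut libraries (exact permutation test, p = 0.1 for each of these pairs), while Z18truncZnFmut overlapped Clover (exact permutation test, p = 0.3). Intronic SVA counts were 319.6 ± 6.64 CPM in Clover, 394 ± 22.5 for Z18fl, 367 ± 5.44 for Z18trunc and 374 ± 74.1 for Z18truncZnFmut. Over the same groups, exonic SVA counts were 129.7 ± 8.14, 120.1 ± 6.46, 128 ± 5.02 and 126 ± 24.4 CPM, and those between genes 188 ± 9.25, 176 ± 13.8, 184 ± 5.05 and 209.6 ± 31.2 CPM. SVA elements without any CCCTCT, which are mostly short pieces, went from 16.3 ± 1.48 CPM in Clover to 22.5 ± 1.24 for Z18fl, 17.9 ± 1.11 for Z18trunc and 17.5 ± 3.27 for Z18truncZnFmut.

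At the level of whole subfamilies the direction depended on the scaling. Counts of each subfamily were tested with edgeR among all subfamilies of the 6 classes, either with TMM factors, which set the middle of all subfamilies to no change, or with aligned fragments as the library size, which moved the middle of all sense subfamilies to 0.46 with Z18fl, 0.48 with Z18trunc and 1.04 with Z18truncZnFmut on the log2 scale. With TMM, 4 of the 6 SVA subfamilies were called lower with Z18fl on the sense strand, where 20.1% of all subfamilies were called lower, and 6 with Z18trunc, where 11.0% were. With Z18fl the log2 fold changes were -0.43 ± 0.08 (SE) for SVA_B, -0.32 ± 0.08 for SVA_C, -0.48 ± 0.08 for SVA_D and -0.34 ± 0.08 for SVA_F, but -0.11 ± 0.07 for SVA_A (edgeR adjusted p = 0.24) and -0.19 ± 0.09 for SVA_E (edgeR adjusted p = 0.091). With Z18trunc they ran from -0.39 to -0.31 (edgeR adjusted p from 0.010 to 0.048), and without Clover replicate 2 the count of called subfamilies fell to 1, without Clover replicate 3 to 0. Scaled by aligned fragments, none of the 6 was called lower in either comparison, and SVA_A at 0.37 ± 0.08 and SVA_E at 0.28 ± 0.10 were called higher with Z18fl (edgeR adjusted p = 0.0010 and 0.020), where 54.0% of all subfamilies were called higher with this scaling and 4.25% lower. None was called higher with Z18trunc, where 45.2% of all were and 0.975% were lower. In 1 fit of all 12 libraries with TMM none of the 6 was called in either comparison. Under both scalings every SVA subfamily stayed below the middle of all sense subfamilies with Z18fl and Z18trunc. With Z18truncZnFmut the 6 values ran from -0.58 to -0.36 with TMM and none was called by edgeR at either scaling, at an unadjusted p under 0.05 (0 of 6) or by DESeq2 (0 of 6), where 1.3% of all subfamilies were called higher and 0.0% lower. At an unadjusted p under 0.05, 95 of all 920 subfamilies were higher and 76 lower. Without Z18truncZnFmut replicate 1 the 6 SVA values ran down to -1.12 for SVA_A and -0.76 for SVA_B, and without replicate 3 SVA_A was at -0.21, SVA_F at -0.050 and SVA_B at 0.018, above 0.

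**Figure D2:**
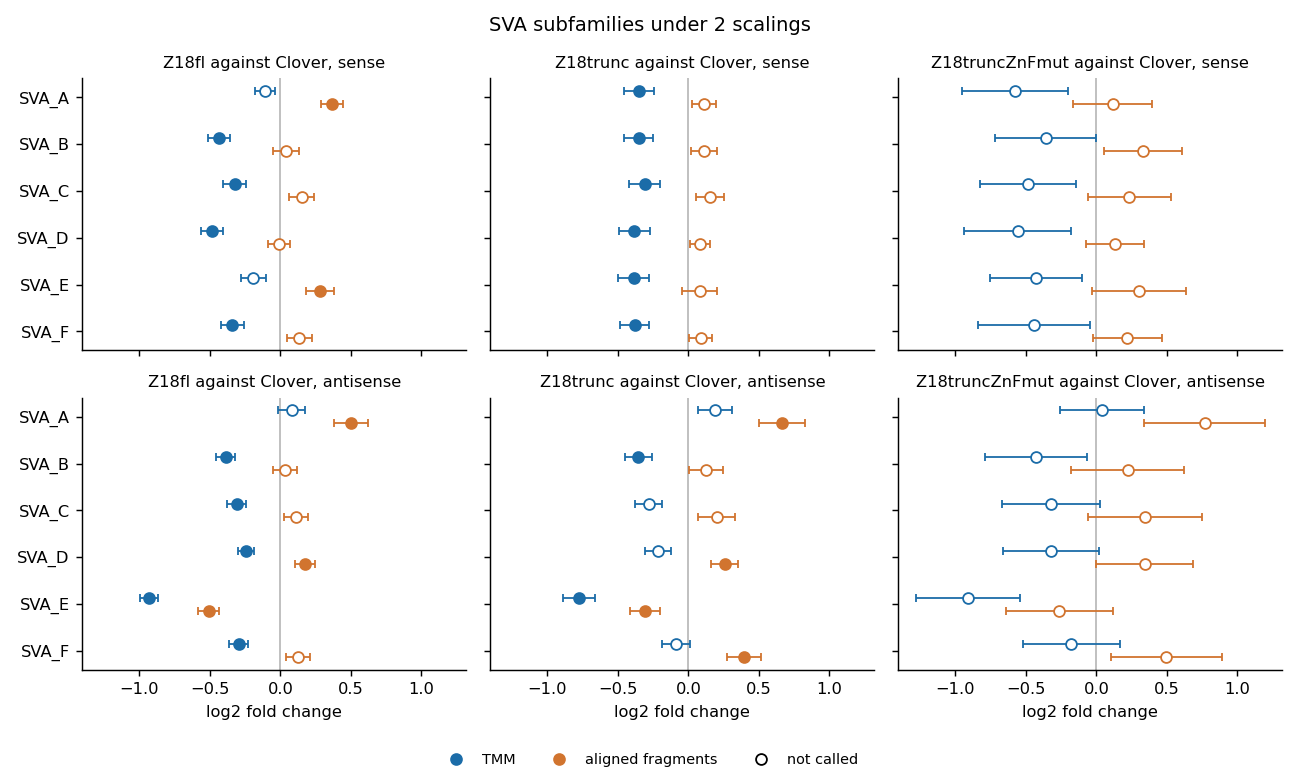
Log2 fold change of the 6 SVA subfamilies against Clover, with bars of 1 SE. Blue points use TMM factors and orange points aligned fragments as library size, filled points were called by edgeR (adjusted p under 0.05), and the rows are sense and antisense reads; SVA_E antisense lies below 0 under both scalings, while most other subfamilies change sign between them.

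SVA_A on the sense strand and SVA_E on the antisense strand stood apart from the other subfamilies. The element in HUWE1 held most of the antisense SVA_E counts, while the leading elements of SVA_A held a smaller part. In CPM, sense SVA_A was 101, 102 and 98.8 for Clover, 132, 128 and 129 for Z18fl, 110.2, 111 and 105 for Z18trunc, and 136, 81.7 and 109.7 for Z18truncZnFmut. Of these, the elements in HNRNPA2B1 and RNF103-CHMP3 together made up 8.65% ± 1.002 for Clover, 19.3% ± 0.441 for Z18fl, 12.7% ± 1.21 for Z18trunc and 12.4% ± 1.85 for Z18truncZnFmut. Without them SVA_A was 92.0 ± 1.996 CPM in Clover, 105 ± 1.07 for Z18fl, 94.99 ± 4.10 for Z18trunc and 95.8 ± 24.5 for Z18truncZnFmut. The Z18fl libraries, at 103.9 to 105.9 CPM, then still lay above the Clover libraries, at 90.4 to 94.2 CPM. On the antisense strand SVA_E was called lower under both scalings, at -0.93 ± 0.06 with TMM and -0.51 ± 0.07 with aligned fragments for Z18fl (edgeR adjusted p = 5.4e-15 and 1.1e-05), and at -0.77 ± 0.11 and -0.31 ± 0.11 for Z18trunc (edgeR adjusted p = 0.00016 and 0.035). The element in HUWE1 held 76.5% ± 0.729 of SVA_E antisense counts for Clover, 61.5% ± 2.33 for Z18fl, 64.1% ± 3.31 for Z18trunc and 63.5% ± 2.24 for Z18truncZnFmut. Without it SVA_E antisense was 21.8 ± 0.550 CPM in Clover, 25.1 ± 1.13 for Z18fl, 26.9 ± 1.31 for Z18trunc and 28.2 ± 1.57 for Z18truncZnFmut. These elements were picked after their values were seen, so the values without them carry no test. Of the other antisense subfamilies, TMM called SVA_B, SVA_C, SVA_D and SVA_F lower with Z18fl, which with SVA_E makes 5 of 6 against 13.9% of all subfamilies, and SVA_B and SVA_E lower with Z18trunc, 2 of 6 against 6.18%. None of the 6 was called higher with TMM, where 10.9% of all subfamilies were with Z18fl and 2.71% with Z18trunc. With aligned fragments SVA_E alone remained lower, SVA_A rose by 0.50 ± 0.12 with Z18fl and 0.66 ± 0.16 with Z18trunc (edgeR adjusted p = 0.0017 and 0.0097), and SVA_D rose by 0.17 ± 0.07 and 0.26 ± 0.10 (edgeR adjusted p = 0.045 and 0.041). SVA_F rose by 0.39 ± 0.12 with Z18trunc (edgeR adjusted p = 0.020), where TMM gave -0.086. These are 2 of 6 called higher with Z18fl and 3 of 6 with Z18trunc, where with this scaling 53.9% and 44.0% of all antisense subfamilies were called higher and 2.89% and 0.429% lower. In 1 fit of all 12 libraries none of the 6 was called, with SVA_E at -0.92 for Z18fl and -0.77 for Z18trunc (edgeR adjusted p = 0.11 and 0.24).

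Single elements were tested among all elements of the 6 classes with enough reads. Of the 3132 SVA elements with sense counts, 244 could be tested for Z18fl against Clover, and an element can pass the filter through the group in which it is high. With TMM, 39 of the 244 (16.0%) were called higher and 62 (25.4%) lower, where edgeR called 28.3% of all 12098 elements higher and 24.6% lower. The median log2 fold change was -0.26 for SVA and 0.01 for all elements. By class the other medians were 0.84 for LINE, 0.04 for DNA, -0.14 for LTR and -0.41 for SINE, so SVA lay between LTR and SINE. For Z18trunc 12 of 248 SVA elements (4.84%) were called higher and 34 (13.7%) lower, against 22.5% and 13.4% of all elements, with medians of -0.23 and -0.03. There the class medians were 1.02 for LINE, -0.17 for DNA, -0.25 for LTR and -0.34 for SINE. Called lower were 41 SVA elements without Z18fl replicate 1 and 40 without Z18fl replicate 2 in the first comparison, and 18 to 19 in the second when replicate 1 or 2 of Z18trunc was left out. For Z18truncZnFmut 5 of 226 (2.21%) were called higher and 4 (1.77%) lower, against 12.3% and 4.83%, with medians of -0.05 for both, and without Z18truncZnFmut replicate 3 these counts were 3 and 2. Scaled by aligned fragments the SVA medians turned positive, to 0.14, 0.12 and 0.19 in these comparisons, below the 0.48, 0.39 and 0.24 of all elements, and the calls were 64 higher and 29 lower with Z18fl, 25 and 9 with Z18trunc, and 13 and 1 with Z18truncZnFmut. As shares of the SVA elements tested these were 24.9% and 11.3%, 10.1% and 3.64%, and 5.51% and 0.424%, against 38.3% and 13.2%, 32.0% and 3.69%, and 17.7% and 1.17% of all elements. These 3 comparisons share the Clover libraries.

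Calls were also counted by place in the annotation, against all tested elements of the same place. With Z18fl and TMM, intronic SVA elements gave 25 higher and 20 lower of 107 tested (23.4% and 18.7%) with a median of 0.03, while all intronic elements had a median of 0.64 and 41.8% were called higher and 12.8% lower. Between genes the counts were 6 higher and 23 lower of 63 (9.52% and 36.5%, against 28.1% and 22.1% of all such elements) with a median of -0.52 against 0.04. Opposite to a gene they were 3 higher and 13 lower of 53 (5.66% and 24.5%, both below the 18.8% and 28.1% of all such elements), with a median of -0.48 against -0.23. In exons the order turned: SVA elements had a median of -0.16 with 5 higher and 6 lower of 21 (23.8% and 28.6%), while all exonic elements had -0.62 and 11.5% were called higher and 42.4% lower. With Z18trunc the SVA medians were -0.13 in introns against 0.47, -0.39 between genes against 0.08, -0.34 opposite to a gene against -0.12 and -0.28 in exons against -0.49. By subfamily with Z18fl, SVA_C elements had a median of 0.29 (6 higher and 4 lower of 18) and SVA_A 0.10 (6 and 6 of 25), while SVA_D had -0.24 (16 and 26 of 107) and SVA_F -0.42 (7 and 20 of 73). SVA_B had -0.003 (2 and 5 of 15) and SVA_E -0.29 (2 and 1 of 6). By divergence the medians with Z18fl were -0.16 under 50 substitutions in 1000 bases (18 higher and 16 lower of 88), -0.26 from 50 to 99 (16 and 36 of 122) and -0.47 from 100 (5 and 10 of 34). Beside the counts by subfamily and by divergence, 28.3% of all tested sense elements were called higher with Z18fl and 24.6% lower. All values in this paragraph use TMM.

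**Figure D3:**
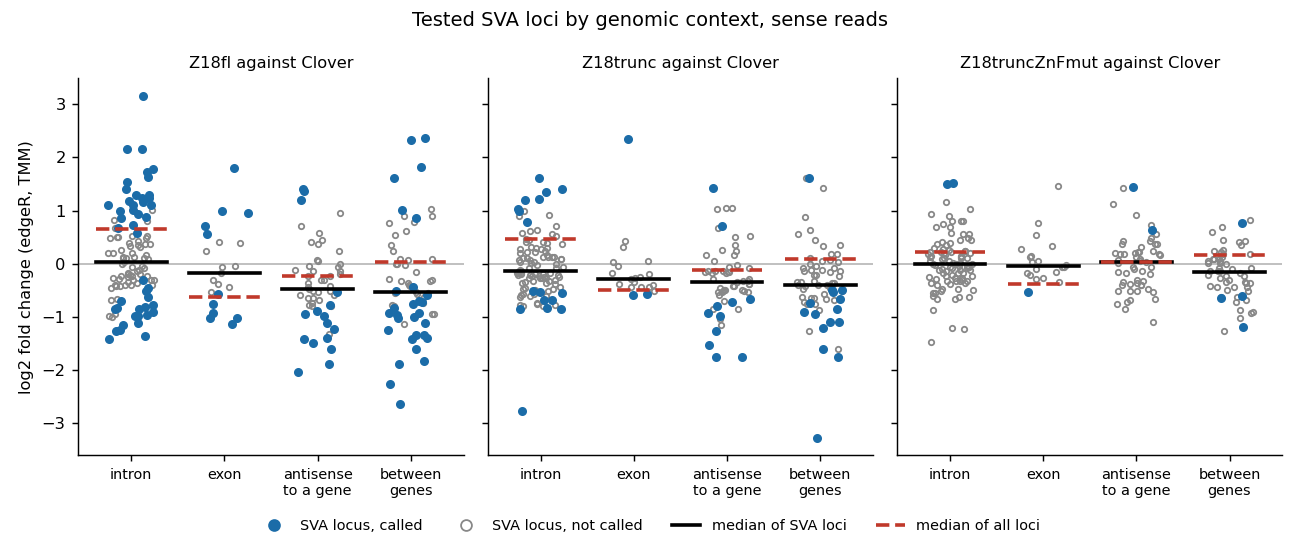
Log2 fold change with TMM of each tested SVA element on the sense strand, by place in the gene annotation, for the 3 ZC3H18 constructs against Clover. Filled points were called by edgeR, black lines are medians of SVA elements and dashed red lines medians of all tested elements in that place; with Z18fl the SVA median is 0.03 in introns, where that of all elements is 0.64.

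Among the 10 elements with the highest sense counts, all lay in introns or exons on the strand of a gene, and the SVA_D in an intron of IARS1, the isoleucyl-tRNA synthetase gene, was the first. It had 665, 643 and 711 counts for Clover, 833, 746 and 954 for Z18fl, 993, 1019 and 973 for Z18trunc, and 1360, 790 and 1028 for Z18truncZnFmut. Per aligned fragment every Z18fl library lay below and every Z18trunc library above every Clover library, and Z18truncZnFmut replicate 1 was highest of all. The log2 fold change with Z18fl was -0.52 ± 0.11 with TMM (edgeR adjusted p = 0.00063) but -0.16 with aligned fragments (edgeR adjusted p = 0.23). For Z18trunc it was -0.26 with TMM, so the direction with Z18trunc depended on the scaling. The SVA_D in GOSR1, a Golgi SNARE gene, lies wholly in annotated untranslated exon (chr17:30522805-30524227). Its counts were 719, 664 and 846 for Clover, 666, 623 and 688 for Z18fl, 890, 932 and 814 for Z18trunc, and 1018, 647 and 771 for Z18truncZnFmut. In CPM that was 43.3 ± 4.52, 27.6 ± 1.05, 36.8 ± 2.14 and 34.8 ± 6.38 in the same order of groups, lowest in every Z18fl library. The log2 fold changes were -1.01 ± 0.12, -0.58 ± 0.11 and -0.52 ± 0.15 with TMM (edgeR adjusted p = 2.3e-06, 0.00041 and 0.013), and with aligned fragments only that of Z18fl was called, at -0.65 (edgeR adjusted p = 0.00014). The SVA_D in C2CD3, a centriole gene, also lies mostly in annotated exon and moved likewise with Z18fl, at -1.02 ± 0.13 with TMM and -0.66 with aligned fragments (edgeR adjusted p = 4.7e-06 and 0.00042).

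Other leading elements were called lower with Z18fl as well, some only with TMM. The neighbouring SVA_A entries in an intron of RHOT1, a mitochondrial GTPase gene, are pieces side by side, and both were called lower with Z18fl under both scalings, at -0.84 ± 0.13 and -0.71 ± 0.13 with TMM and -0.48 and -0.34 with aligned fragments (edgeR adjusted p = 0.0033 and 0.032 for the latter). The SVA_C that lies wholly in untranslated exon of TRIM56, an E3 ubiquitin ligase gene, was called lower with TMM at -0.56 ± 0.13 (edgeR adjusted p = 0.0017) and not with aligned fragments at -0.20 (edgeR adjusted p = 0.25). The SVA_B in YARS1, the tyrosyl-tRNA synthetase gene, turned from -0.30 ± 0.12 with TMM (edgeR adjusted p = 0.036) to 0.06 with aligned fragments (edgeR adjusted p = 0.68). The SVA_D in RSKR showed no call in any of the 3 comparisons. The SVA_F in DCBLD2, a transmembrane protein gene, went the other way: its counts were 159, 208 and 148 for Clover, 432, 322 and 414 for Z18fl, 386, 356 and 384 for Z18trunc, and 398, 251 and 308 for Z18truncZnFmut. Its log2 fold change with Z18fl was 0.33 ± 0.15 with TMM (edgeR adjusted p = 0.077) and 0.70 with aligned fragments (edgeR adjusted p = 0.0014).

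The SVA_A in HNRNPA2B1, an RNA-binding protein gene, was the leading element that rose with Z18fl under both scalings and not with the truncated proteins under TMM. It lies in an intron of 6 of the 49 annotated transcripts of the gene, and NFE2L3 overlaps it on the other strand. Its counts were 156, 112 and 134 for Clover, 469, 455 and 501 for Z18fl, 235, 257 and 279 for Z18trunc, and 305, 200 and 218 for Z18truncZnFmut. Every Z18fl library lay above every other library. In CPM and the same order the levels were 7.83 ± 1.42, 19.9 ± 0.364, 10.8 ± 0.953 and 10.3 ± 1.97. With TMM the log2 fold change was 0.99 ± 0.14 with Z18fl (edgeR adjusted p = 2.0e-05), 0.12 ± 0.15 with Z18trunc (edgeR adjusted p = 0.58) and 0.20 ± 0.17 with Z18truncZnFmut (edgeR adjusted p = 0.50), and the difference of Z18trunc from Z18fl was -0.96 ± 0.14 (edgeR adjusted p = 0.00023). Scaled by aligned fragments, Z18fl was at 1.34 and Z18trunc at 0.46 (edgeR adjusted p = 1.6e-06 and 0.033).

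A second SVA_A, in an intron shared by CHMP3, an ESCRT-III gene, and its readthrough transcript RNF103-CHMP3, rose with all 3 ZC3H18 constructs. Its counts were 8, 23 and 15 for Clover, 133, 97 and 140 for Z18fl, 89, 58 and 71 for Z18trunc, and 104, 47 and 61 for Z18truncZnFmut. No library of any construct reached down to a Clover library. The log2 fold changes with TMM were 2.15 ± 0.28, 1.41 ± 0.32 and 1.52 ± 0.34 (edgeR adjusted p = 7.4e-06, 0.0019 and 0.0023), and that of Z18trunc against Z18fl was -0.83 ± 0.19 (edgeR adjusted p = 0.013). Most of these counts were from reads that map only there, 101, 78 and 104 with Z18fl. Another SVA_A of the same gene, at chr2:86548188, stayed between 4.56 and 4.99 CPM in the 4 group means. The SVA_D opposite to RFX7, a transcription factor gene, rose by 1.36 ± 0.38, 1.42 ± 0.43 and 1.44 ± 0.42 from counts of 8, 4 and 10 in Clover (edgeR adjusted p = 0.0059, 0.013 and 0.019). The SVA_D in KDM5B, a histone H3 lysine 4 demethylase gene, had 5, 7 and 5 counts in Clover and 29, 21 and 25 in Z18fl, and rose by 1.28 ± 0.43 with Z18fl and 1.50 ± 0.47 with Z18truncZnFmut (edgeR adjusted p = 0.017 and 0.028), while 0.91 ± 0.45 with Z18trunc was not called (edgeR adjusted p = 0.13).

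The highest fold changes on the sense strand with Z18fl belonged to elements with few reads. The SVA_C in an intron of SMOC1, a secreted matrix protein gene, had 0, 2 and 2 counts for Clover, 25, 20 and 23 for Z18fl, 6, 9 and 11 for Z18trunc, and 7, 3 and 5 for Z18truncZnFmut, a log2 fold change of 3.16 ± 0.62 with Z18fl (edgeR adjusted p = 0.00037). The SMOC1 element passed the filter through Z18fl and was named for its rise, so its p-value gives no separate support. An SVA_B between genes at chr15:54780827-54782126 followed at 2.36 ± 0.64 and an SVA_C between genes at chr2:171774049-171775537 at 2.32 ± 0.66. With Z18trunc the SVA_B in UGGT2 rose by 1.62 ± 0.54 and an SVA_D at chr1:90891186-90892580 by 1.61 ± 0.58. All of these kept their direction with aligned fragments.

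The strongest falls with Z18fl were of elements between genes. An SVA_D at chr3:51857958-51859674, with a low divergence of 23 substitutions in 1000 bases, had 37, 27 and 38 counts for Clover, 8, 10 and 11 for Z18fl, 18, 16 and 19 for Z18trunc, and 37, 38 and 27 for Z18truncZnFmut. Z18fl was lowest, Z18trunc lay between, and Z18truncZnFmut overlapped Clover. Its log2 fold changes were -2.64 ± 0.33, -1.76 ± 0.30 and -0.62 ± 0.30 with TMM (edgeR adjusted p = 4.6e-06, 0.00013 and 0.17), and -2.28, -1.41 and -0.43 with aligned fragments. An SVA_D at chr18:51116550-51118078 was far better covered, with 126, 183 and 162 counts for Clover, 86, 73 and 80 for Z18fl, 173, 151 and 139 for Z18trunc, and 260, 180 and 190 for Z18truncZnFmut. It showed the same order of groups, 9.14 ± 1.58, 3.34 ± 0.335, 6.46 ± 0.729 and 9.02 ± 1.53 CPM. Its log2 fold change was -1.82 ± 0.18 with Z18fl and -0.85 ± 0.16 with Z18trunc (edgeR adjusted p = 3.3e-07 and 0.00044), Z18trunc was above Z18fl by 0.87 ± 0.17 (edgeR adjusted p = 0.0041), and Z18truncZnFmut was above Z18trunc by 0.65 ± 0.17, which was not called (edgeR adjusted p = 0.069). An SVA_F at chr5:142074661-142077352 fell by 2.25 ± 0.41 (log2) with Z18fl, with 2, 0 and 0 uniquely mapping reads there. The SVA_F at chr17:60551661-60552892 fell by 3.27 ± 0.66 (log2) with Z18trunc, from 13, 12 and 10 counts in Clover to 4, 0 and 2. An SVA_A at chr7:91886846-91887740 had 46, 56 and 42 counts with Clover, and was called lower with Z18truncZnFmut at -1.20 ± 0.27 with TMM and -0.98 with aligned fragments (edgeR adjusted p = 0.0027 and 0.017). The call of an SVA_F in an intron at chr10:97275114-97276325 with Z18trunc (-2.77 ± 0.69) rests on shared reads, since no Clover or Z18trunc library had a read that maps only there.

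**Figure D4:**
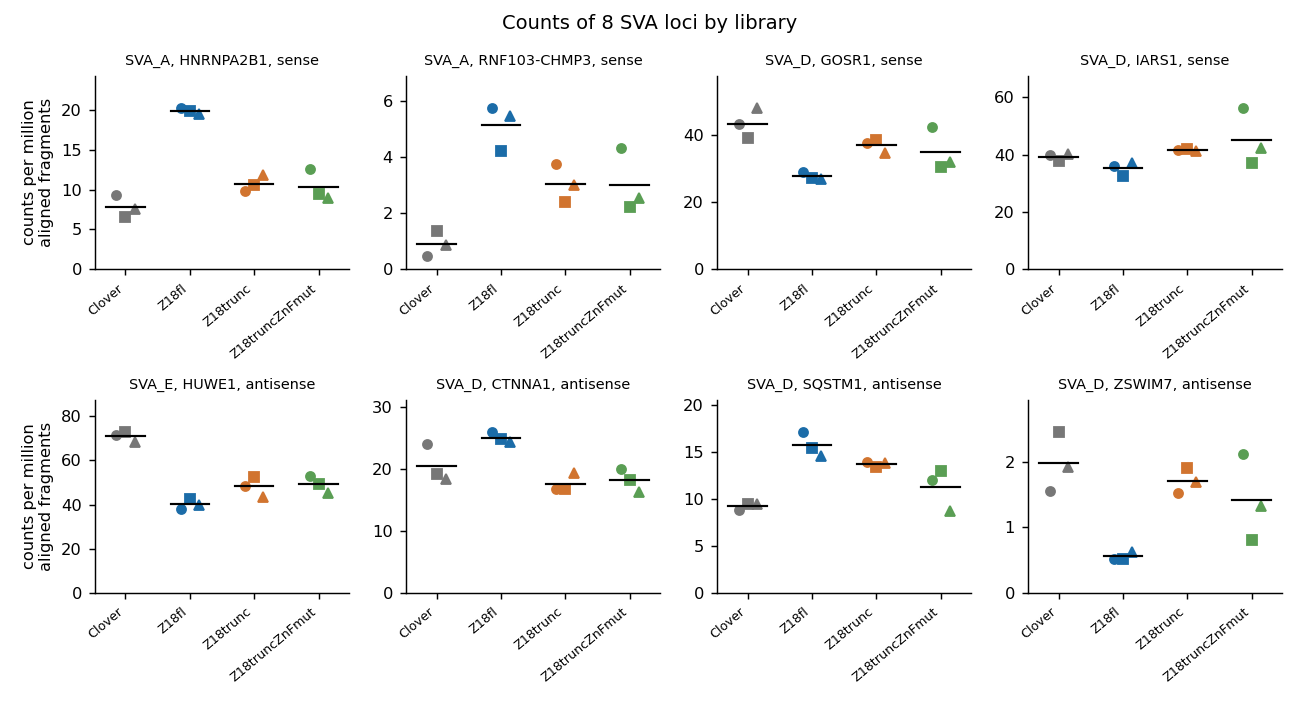
CPM (counts scaled to 1000000 aligned fragments) of 8 SVA elements in each library, with 1 symbol per replicate (circle, square and triangle for replicates 1, 2 and 3) and a line at the mean of 3 libraries. HNRNPA2B1 and CTNNA1 are highest in Z18fl, RNF103-CHMP3 is above Clover in all constructs, and GOSR1, HUWE1 and ZSWIM7 are lowest in Z18fl.

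On the antisense strand fewer SVA elements were called. For Z18fl against Clover 15 of 119 tested elements (12.6%) were called higher and 9 (7.56%) lower, where 19.2% and 14.9% of all antisense elements were. Without any 1 of the Z18fl libraries 8 to 9 were called higher and 4 to 6 lower. For Z18trunc 4 of 125 were called higher and 2 lower, against 7.45% and 3.39%, and 2 higher without Z18trunc replicate 1 or 3 and 8 without Clover replicate 3. For Z18truncZnFmut edgeR called 0 of 114 in either direction, where 0.765% and 0.191% of all were called. At an unadjusted p under 0.05 the SVA counts were 21 higher and 3 lower, beside 429 and 332 of all 5230 elements. DESeq2 called 1 SVA element lower, in HUWE1. The median log2 fold changes of the tested SVA elements were 0.10, 0.26 and 0.33, above the medians of all elements (-0.01, -0.03 and -0.01), and aligned fragments left them at 0.05, 0.31 and 0.36. Most of the tested SVA elements lay in introns on the strand read, 97 of 119, 105 of 125 and 95 of 114. In such introns the SVA medians with TMM were 0.21, 0.37 and 0.34, against 0.33, 0.19 and 0.13 for all elements. Set against elements of the same place, SVA was thus below with Z18fl and above with the other constructs. With TMM the antisense subfamilies other than SVA_A had the opposite sign, with medians over all 6 of -0.30, -0.25 and -0.32 and SVA_A at 0.082, 0.19 and 0.039; the factors of elements and of subfamilies were computed apart.

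The SVA_E in an intron of HUWE1, a large E3 ubiquitin ligase gene that runs opposite to it, was the most counted SVA element on either strand. Its counts were 1193, 1249 and 1212 for Clover, 885, 975 and 1019 for Z18fl, 1152, 1276 and 1032 for Z18trunc, and 1283, 1047 and 1092 for Z18truncZnFmut. In CPM these were 71.0 ± 2.26, 40.1 ± 2.19, 48.2 ± 4.56 and 49.1 ± 4.01, so that every library with a ZC3H18 construct lay below every Clover library. The log2 fold changes were -0.80 ± 0.08, -0.56 ± 0.08 and -0.47 ± 0.12 with TMM (edgeR adjusted p = 3.3e-06, 0.00028 and 0.067), and -0.82, -0.56 and -0.53 with aligned fragments. Next in level came the SVA_D in CTNNA1, the gene of alpha-catenin, with 402, 328 and 324 counts for Clover, 603, 569 and 625 for Z18fl, 398, 406 and 457 for Z18trunc, and 484, 387 and 396 for Z18truncZnFmut. It was called higher with Z18fl at 0.31 ± 0.10 (edgeR adjusted p = 0.029) and lower with Z18trunc than with Z18fl at -0.52 ± 0.10 (edgeR adjusted p = 0.011). The SVA_D in SQSTM1, the gene of the autophagy receptor p62, rose from 148, 163 and 168 counts for Clover to 398, 355 and 376 for Z18fl and 333, 324 and 328 for Z18trunc, with 292, 276 and 211 for Z18truncZnFmut. Its log2 fold changes were 0.78 ± 0.11, 0.56 ± 0.12 and 0.33 ± 0.17 (edgeR adjusted p = 9.6e-05, 0.0051 and 0.38), the last not called. The SVA_B elements in NCOR1 and at chr16:28376709-28378156 were not called in any comparison.

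The antisense elements with the highest fold changes with Z18fl were both unlike a usual SVA. The tandem array in SPATC1L had 1, 0 and 1 counts for Clover, 20, 38 and 20 for Z18fl, 7, 5 and 8 for Z18trunc, and 8, 3 and 8 for Z18truncZnFmut. With 2 Clover counts in all, the ratio of Z18fl to Clover per aligned fragment was 28.0 with an exact interval of 7.48 to 235 (95%, counting error only), and the log2 fold change of Z18trunc against Z18fl was -1.96 ± 0.42 (edgeR adjusted p = 0.014). The entry of 99 bases in C7orf50 had 2, 0 and 1 counts for Clover, 20, 16 and 51 for Z18fl, 24, 7 and 24 for Z18trunc, and 5, 7 and 8 for Z18truncZnFmut, a ratio of 20.8 (exact interval 6.88 to 103) with Z18fl. Both entries were chosen for their rise and passed the filter through Z18fl, so these intervals carry no test. They also leave out the spread between libraries. The SVA_F in TNKS, the tankyrase gene, had 0, 4 and 4 counts in Clover and rose by 2.11 ± 0.62 with Z18fl and 2.67 ± 0.59 with Z18trunc (edgeR adjusted p = 0.015 and 0.0072). This element, too, passed the filter through the constructs in which it is high and was named for its rise. Its p-values give no separate support. With Z18trunc the SVA_E in SLC37A3 rose by 1.93 ± 0.59 and the SVA_D at chr10:133413915-133415175 by 1.15 ± 0.34 (edgeR adjusted p = 0.042 and 0.035), and the SVA_C in MFN2, a mitochondrial fusion gene, fell by 0.49 ± 0.14 on the log2 scale (edgeR adjusted p = 0.030). With Z18fl the SVA_D in ZSWIM7, whose antisense reads run opposite to the gene, fell from 26, 42 and 34 counts to 12, 12 and 16, a log2 fold change of -1.81 ± 0.31 (edgeR adjusted p = 0.00043), and the SVA_D in ARFGEF2 fell by 1.42 ± 0.39 on that scale (edgeR adjusted p = 0.0099).

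Z18trunc and Z18fl differed at few SVA elements. On the sense strand 5 of 294 (1.70%) were called higher with Z18trunc and 23 (7.82%) lower, where 2.62% and 3.13% of all elements were. Leaving out 1 library brought the count called lower down to 7 without Z18fl replicate 1 and to 8 without Z18fl replicate 2, Z18trunc replicate 1 or Z18trunc replicate 2. The largest falls were those of the SVA_A in NUP37, a nuclear pore gene, with 26, 18 and 30 counts in Z18fl and 7, 5 and 6 in Z18trunc (-2.08 ± 0.38, edgeR adjusted p = 0.0025), and of an SVA_F at chr10:92375846-92376425 that had 0 to 1 uniquely mapping reads per library. The largest rises were those of the SVA_F in LETM1, a gene of the inner mitochondrial membrane, with 17, 12 and 27 counts in Z18fl and 46, 37 and 44 in Z18trunc (log2 fold change 1.12 ± 0.28, edgeR adjusted p = 0.020), of the SVA_D in the pseudogene TRIM51BP (0.94 ± 0.27) and of an SVA_D at chr7:93585232-93586901 (0.90 ± 0.21). On the antisense strand 2 of 183 were called in each direction, where 1.43% of all were called higher and 1.62% lower: ZSWIM7 at 1.59 ± 0.27 and an SVA_D at chr7:47958783-47960388 at 0.94 ± 0.19 were higher with Z18trunc, and SPATC1L and CTNNA1 lower. No SVA subfamily was called between Z18trunc and Z18fl on either strand by edgeR or DESeq2, where 1.48% of all sense subfamilies were called higher and 2.22% lower, and of all antisense subfamilies 0.21% and 0.734%. At an unadjusted p under 0.05 SVA had 2 lower on the sense strand and 1 higher on the antisense strand. Of all subfamilies 85 of 947 were then lower on the sense strand and 71 of 954 higher on the antisense strand.

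Between Z18truncZnFmut and Z18trunc, edgeR called 0 of 271 SVA elements on the sense strand and 0 of 180 on the antisense strand, where 0.368% and 0.181% of all elements were called higher and 0.351% and 0.0557% lower. At an unadjusted p under 0.05 there were 33 higher and 5 lower on the sense strand and 3 higher and 5 lower on the antisense strand. Over all elements these counts were 1138 higher and 1279 lower of 16833 sense, and 342 and 336 of 7177 antisense. DESeq2 called 1 higher on the sense strand, the element at chr18:51116550, and 0 on the antisense strand. The antisense element with the smallest p was an SVA_D at chr1:203918560-203920471, with 15, 14 and 12 counts in Z18trunc and 28, 31 and 36 in Z18truncZnFmut (1.33 ± 0.34, edgeR adjusted p = 0.14).

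To set intronic SVA elements beside their surroundings, the other repeats in introns of the same gene were summed, a comparison added after seeing the data. On the sense strand 66 SVA elements in 56 genes had at least 30 counts of such repeats in each Clover library. The median log2 ratio to Clover per aligned fragment was 0.31 for the SVA element and 0.72 for the other repeats with Z18fl, 0.31 and 0.69 with Z18trunc, and 0.28 and 0.78 with Z18truncZnFmut. The SVA element was below the other repeats of its gene in 43, 46 and 51 of the 66. On the antisense strand the medians over 96 elements in 89 genes were 0.15 and 0.63, 0.37 and 0.61, and 0.38 and 0.72, with the SVA element below in 77, 63 and 67. The Spearman correlation of SVA element and other repeats was 0.43, 0.47 and 0.20 on the sense strand and 0.15, 0.14 and 0.19 on the antisense strand. Some of the elements described above follow as examples, and they do not stand for the rest. Among these examples the SVA_B in NCOR1 did not move in the direction of its gene, and the others did. The other intronic repeats of HUWE1 were lower like the SVA_E, at 90.1 CPM in Clover and 59.2, 65.8 and 66.0 with the 3 constructs, and those of HNRNPA2B1 went from 3.53 to 8.08, 6.20 and 5.13. Those of RNF103-CHMP3 went from 15.6 to 22.2, 30.9 and 31.0, where the SVA_A went from 0.884 to 5.14, 3.05 and 3.01. There the other repeats rose least with Z18fl and the SVA_A rose most with it. In NCOR1 the other repeats were at 8.66 CPM in Clover and 16.7 with Z18trunc, and the SVA_B at 12.8 and 10.8. In DCBLD2 the other repeats went from 30.5 to 69.4 CPM with Z18fl, and the SVA_F from 10.0 to 16.3. Whether these levels follow the amount of each gene's RNA was not tested.

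**Figure D5:**
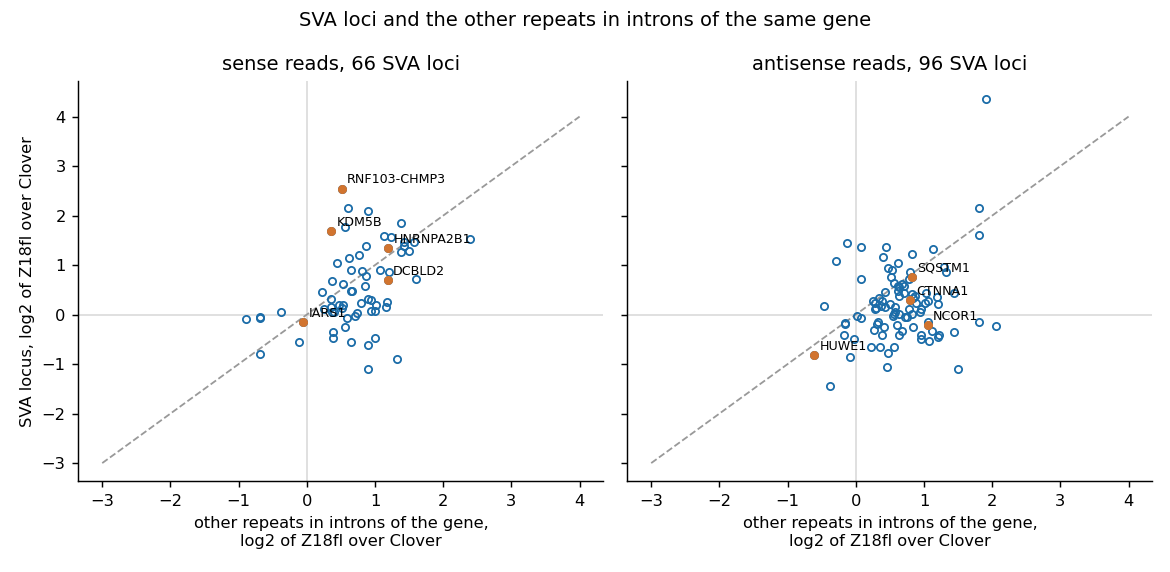
Each point is an SVA element in an intron, with the log2 ratio of Z18fl to Clover of the other repeats in introns of its gene on the x axis and of the SVA element on the y axis, both per aligned fragment. On the dashed line both are equal; 43 of 66 elements read in sense and 77 of 96 read in antisense lie below it, and named elements are orange.

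Elements related to SVA were set beside it as a description. Sense counts of L1HS, the youngest L1 subfamily and a source of the enzymes that copy SVA, were 141, 232, 279 and 263 CPM in the 4 groups (Clover, Z18fl, Z18trunc, Z18truncZnFmut), and those of L1PA2 were 411, 648, 834 and 813. L1PA3 was at 770, 1131, 1453 and 1552 CPM. AluYa5, a young Alu subfamily, was at 55.6, 86.3, 86.2 and 81.3 CPM, AluYb8, another young one, at 36.6, 31.9, 41.6 and 40.2, and AluY at 1389, 1520, 1720 and 1889. LTR5_Hs, the long terminal repeat of the HERV-K group to which the SINE-R part traces back, was at 32.6, 33.1, 34.1 and 39.6 CPM, and HERVK-int, its internal part, at 5.27, 11.3, 7.94 and 12.2. LTR5A, also of the HERV-K group, was at 4.54, 5.94, 5.49 and 8.32 CPM, and LTR5B at 23.4, 33.8, 28.4 and 30.1. SVA as a class was at 770.1, 826, 822 and 870.3 CPM. Relative to their level, the group means of L1HS, L1PA2, L1PA3, AluY and AluYa5 lay farther above Clover than that of SVA with every construct. Those of LTR5A, LTR5B and HERVK-int did so too, but from low counts with a wide spread in places. With Z18truncZnFmut LTR5A was at 8.32 ± 5.08 CPM and HERVK-int at 12.2 ± 6.60. With Z18trunc LTR5A was at 5.49 ± 0.711 CPM, beside 4.54 ± 0.562 in Clover. AluYb8 was below Clover with Z18fl, and LTR5_Hs lay less far above Clover than SVA with Z18fl and Z18trunc.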

How the data were processed

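4-thiouridine-labelled, V5-immunoprecipitated RNA of 12 A375 libraries was sequenced by the authors as stranded, ribosomal RNA-depleted libraries. Adapters were trimmed with cutadapt 4.6 per the labels' processing notes, and reads were assigned to hg38 repeats with SQuIRE, whose version is not given in the sources used here. The authors deposited 1 table per library with estimated counts per element (unique reads plus a share of reads that fit several elements) and counts of uniquely mapping reads, neither normalized. Shared reads make values of near-identical copies uncertain. FPKM and score columns were not used. Members and lists were chosen with earlier results of these data known.

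Estimated counts were rounded and tested with edgeR 4.0.16 (quasi-likelihood, TMM, filterByExpr with a minimum count of 10 and total of 15; R 4.3.3) over all elements or subfamilies of 6 classes, per strand, with the 6 libraries of each pair of groups and Benjamini-Hochberg adjustment at 0.05. Scripts were tested on simulated data. For class measures an exact permutation test (two-sided) of 3 libraries against 3 was run. Named elements were all 6 subfamilies, the 10 highest sense and 5 highest antisense elements, and per comparison and strand the 3 largest rises and 2 largest falls called without overlap of the groups at a mean of at least 10 counts; the element at chr2:86548188 was named after its values were seen. One element and some sequences that these rules select are not reported here. Place in genes came from GENCODE, with exonic meaning at least 50% of the element. Alternatives were DESeq2 1.42.0, aligned fragments as library size, no filter, uniquely mapping reads, 1 fit of all libraries, a replicate block, every repeat class and leaving out each library.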

Additional observations from a re-analysis of the deposited data

How the results depend on the processing

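Counts of called SVA elements and subfamilies depended on the settings, and the cause was not tested; depth limited most elements to no test. DESeq2 called 6 antisense elements higher with Z18fl (15 with edgeR), 2 higher and 1 lower with Z18trunc (4 and 2), 1 lower with Z18truncZnFmut (0), and on the sense strand 39 lower with Z18fl (62), 7 higher with Z18trunc (12), 3 higher with Z18truncZnFmut (5), 2 higher and 11 lower for Z18trunc against Z18fl (5 and 23) and 1 higher for Z18truncZnFmut against Z18trunc (0). One fit of all 12 libraries called, antisense, 9 higher and 5 lower with Z18trunc and 2 and 2 with Z18truncZnFmut, and, sense, 55 lower with Z18trunc, 23 lower with Z18truncZnFmut, 2 higher and 8 lower for Z18trunc against Z18fl, and 0 subfamilies in place of 5 and 2 antisense and 4 and 6 sense.

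With aligned fragments as library size, sense elements called were 64 higher and 29 lower with Z18fl, 25 and 9 with Z18trunc and 13 and 1 with Z18truncZnFmut. Subfamilies called were 2 higher and 0 lower sense and 2 higher and 1 lower antisense with Z18fl, and 0 lower sense and 3 higher and 1 lower antisense with Z18trunc. Of all subfamilies 54.0% sense and 53.9% antisense were then higher with Z18fl, and 44.0% antisense with Z18trunc. The sign turned for sense subfamilies with Z18fl (SVA_A 0.37, SVA_B 0.040, SVA_C 0.15, SVA_E 0.28, SVA_F 0.14) and Z18trunc (SVA_A 0.11, SVA_B 0.11, SVA_C 0.15, SVA_D 0.082, SVA_E 0.080, SVA_F 0.089), for antisense subfamilies with Z18fl (SVA_B 0.034, SVA_C 0.11, SVA_D 0.17, SVA_F 0.13) and Z18trunc (SVA_B 0.13, SVA_D 0.26, SVA_F 0.39), and for the YARS1 element with Z18fl (0.062).

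Without a filter the counts were, antisense, 3 lower with Z18fl, 0 lower with Z18trunc and 1 lower for Z18trunc against Z18fl, and, sense, 13 lower with Z18fl, 5 lower with Z18trunc, 0 higher and 7 lower for Z18trunc against Z18fl, 3 higher and 1 lower with Z18truncZnFmut and 1 lower for Z18truncZnFmut against Z18trunc. Uniquely mapping reads gave, antisense, 8 higher with Z18fl, 2 higher with Z18trunc, 5 higher for Z18trunc against Z18fl, 1 lower with Z18truncZnFmut, 1 higher for Z18truncZnFmut against Z18trunc and 1 subfamily lower with Z18trunc, and, sense, 38 lower with Z18fl, 21 lower with Z18trunc and 4 higher for Z18truncZnFmut against Z18trunc. They moved the antisense CPM difference to 30.7 with Z18fl, 45.0 with Z18truncZnFmut, 13.8 between Z18trunc and Z18fl and 0.405 between Z18truncZnFmut and Z18trunc, and the intron share difference to 7.21 with Z18fl and -4.07 for Z18trunc against Z18fl. With any exon overlap taken as exonic that share differed by 4.95 with Z18fl, 2.85 with Z18trunc and -2.10 for Z18trunc against Z18fl. With every repeat class, 2 sense elements were lower with Z18truncZnFmut, and the SVA share differed by -0.159 with Z18fl and -0.255 with Z18trunc.

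Same-numbered libraries showed no clear shared deviation (correlations from -0.078 to 0.087). Counting noise in elements with few reads lowers such correlations, so a weak pairing by number is not excluded. With the replicate block 1 antisense element and 1 antisense subfamily were lower with Z18trunc (2 and 2 without the block). With that block 1 antisense element was lower with Z18truncZnFmut (0 without it). At an unadjusted p under 0.05, antisense counts with Z18fl were 24 higher (1426 of all 5965 elements). With Z18trunc they were 20 higher and 6 lower (817 and 602 of 5788), and with Z18truncZnFmut 21 and 3 (429 and 332 of 5230). For Z18trunc against Z18fl they were 19 and 9 (801 and 848 of 8468), and for Z18truncZnFmut against Z18trunc 3 and 5 (342 and 336 of 7177). Sense counts were 21 and 49 for Z18trunc against Z18fl (2190 and 2236 of 19413). They were 16 and 17 with Z18truncZnFmut (1709 and 1200 of 10152) and 33 and 5 for Z18truncZnFmut against Z18trunc (1138 and 1279 of 16833). Antisense subfamilies were 4 lower with Z18trunc (115 of all 923), 1 lower with Z18truncZnFmut (49 of 927) and 1 higher for Z18trunc against Z18fl (71 of 954). Sense subfamilies were 2 lower for Z18trunc against Z18fl (85 of 947).

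Leaving out each library in turn gave, antisense, 8 to 16 higher and 4 to 10 lower with Z18fl, 2 to 8 higher and 1 to 2 lower with Z18trunc, and 0 to 3 lower for Z18trunc against Z18fl (0 without Z18trunc replicate 1); sense, 40 to 65 lower with Z18fl (41 without Z18fl replicate 1, 40 without Z18fl replicate 2), 18 to 34 lower with Z18trunc (19 without Z18trunc replicate 1, 18 without Z18trunc replicate 2), 2 to 7 higher and 1 to 7 lower with Z18truncZnFmut, 1 to 5 higher and 7 to 22 lower for Z18trunc against Z18fl, and 0 to 2 higher for Z18truncZnFmut against Z18trunc. For subfamilies the ranges were 0 to 6 lower sense and 1 to 3 lower antisense with Z18trunc, 0 to 1 lower antisense with Z18truncZnFmut and 0 to 2 higher antisense for Z18trunc against Z18fl. Of 1707 alternative values of 139 single results, 121 changed sign, 19 of them with a call.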
